A study of Mus musculus with 8 samples.

Results

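The genes described here are the Id family and members of the bone morphogenetic protein (BMP) pathway in cells of the adult mouse dentate gyrus. They are 10 listed genes of 31053 in the count tables, of which 21408 had at least 1 UMI (unique molecular identifier, a tag that marks a single captured RNA molecule) in the cells kept. They comprise the targets Id1, Id2, Id3 and Id4, the receptors Bmpr1a, Bmpr1b and Bmpr2, and the ligands Bmp4, Bmp6 and Bmp7. All 10 were detected and none was dropped. The cells came from Nestin-GFP mice, in which control elements of the Nestin gene drive GFP, so the sort itself decided which cells entered the tables. Per the study's methods the animals were males, 8 weeks old. Control mice had a sham craniotomy, TBI mice had a unilateral controlled cortical impact, and both were killed 15 days after surgery. Cells from dentate gyri of the operated side were pooled by condition before sorting, living GFP+ cells were sorted, and each pool gave 1 droplet library. The labels list 4 animals of each condition, whereas the study's text gives higher numbers, and no cell can be assigned to an animal.

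BMP ligands bind a complex of type I receptors (Bmpr1a, Bmpr1b) and type II receptors (Bmpr2), which phosphorylates the transcription factors Smad1, Smad5 and Smad9. These enter the nucleus with Smad4 and switch on target genes, among which the Id genes are the best known. Id proteins lack a DNA-binding domain and hold E proteins and other helix-loop-helix factors off the DNA, which keeps neural stem cells undifferentiated and quiescent. In the dentate gyrus BMP signalling is known to restrain stem cell division, and antagonists such as Noggin counter it.

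Upstream DNA of the members was read from RefSeq on GRCm38.p6, where 8 of the 10 members had an entry and Id1 and Bmp7 had none. For Id4 and Bmp4 the 250 bases before the transcription start lie in no annotated exon, and for Id2 the farthest 89 of 250 bases do, in an intron of its longest transcript. These stretches are shown because Id2 and Id4 dominated the Id output of different neural cells and Bmp4 was the most abundant of the member ligands. Capitals mark GGCGCC, a GC-rich motif that Smad1 and Smad5 can bind, searched on both strands (it is its own reverse complement).
Id2, chr12:25096254-25096342, minus strand: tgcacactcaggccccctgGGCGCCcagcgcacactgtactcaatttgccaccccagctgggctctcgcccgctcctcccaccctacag
Id4, chr13:48260866-48261115, plus strand: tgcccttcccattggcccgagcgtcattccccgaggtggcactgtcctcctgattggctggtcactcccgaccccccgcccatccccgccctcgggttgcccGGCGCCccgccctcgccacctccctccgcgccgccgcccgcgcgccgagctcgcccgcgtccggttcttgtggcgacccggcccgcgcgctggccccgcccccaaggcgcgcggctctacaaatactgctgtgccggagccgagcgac
Bmp4, chr14:46390670-46390919, minus strand: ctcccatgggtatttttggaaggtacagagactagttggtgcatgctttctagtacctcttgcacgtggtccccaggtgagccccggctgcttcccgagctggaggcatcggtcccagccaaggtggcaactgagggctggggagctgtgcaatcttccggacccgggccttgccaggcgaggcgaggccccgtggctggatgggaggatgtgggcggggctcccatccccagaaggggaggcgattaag
A single match lay in the full window of Id2 (beginning 231 bases before the start), Id4 (148 bases before it), Bmpr1a and Bmpr2. It was absent from the windows of Id3, Bmpr1b, Bmp4 and Bmp6. The windows of Id3, Bmp6 and Bmpr2 lie wholly (250 of 250 bases) in annotated exons, so they are not DNA upstream of the annotated gene. Those of Bmpr1a (141 bases) and, for one start, Bmpr1b (103 bases) overlap exons in part. Of 32817 promoter windows of the same length, 9.59% held it, a share that is not matched for GC content. The member windows with a match ran from 62.8% (Id2) to 78.8% GC (Bmpr1a). Those without ran from 46.8% (Bmpr1b) to 68.8% (Bmp6). A match is a description of the letters, and no measurement of Smad binding was made here.

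The tables held 3086 Control and 5081 TBI barcodes, of which 3048 and 5033 were kept, with a median of 6933 and 5676 UMIs per cell. Cells were clustered without the 10 members and 45 other pathway genes, and each cluster was named from marker genes. The names below (NSC, astrocyte and so on) therefore stand for marker-defined classes rebuilt here and not for the study's own annotation. The result was 14 classes, and 485 cells stayed unnamed, most of them shallow (median 1356 UMIs) and 15 in a deep cluster of called doublets. Of the 14 classes, RG-like cells (4 of 10 markers highest in the class itself) and stem-like astroglia (3 of 5) had the weakest markers, and in each of the others most markers were highest there. NSC here means dividing progenitors, since their 8 markers are cell cycle genes such as Mki67 and Top2a. The 2 libraries shared 3 barcodes, and called doublets (38 Control and 110 TBI cells) were kept. Levels are UMIs of a gene summed over the cells of a class per 1000000 UMIs of that class (CPM, without Malat1). With 1 library per condition there is no test, and all intervals given (95%, exact) cover counting error only.

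Id1 was by far an endothelial gene in these cells. It reached 1807 CPM in Control and 1533 CPM in TBI endothelial cells (2417 and 3312 UMIs), and 393 and 521 CPM in smooth muscle cells. Over both libraries the endothelial level was 3.70 times that of smooth muscle, and endothelial cells held 68.5% of the 8364 Id1 UMIs of the named classes. Outside the vessel wall the highest levels were in NSCs, with 183 CPM in Control and 140 CPM in TBI, and in stem-like astroglia, with 106 and 154 CPM. Pooled over both libraries, pericytes (179 CPM) and NSCs (165 CPM) overlapped within their intervals. The order differed by library, with pericytes below NSCs in Control and above them in TBI. Id1 was lower along the neuronal lineage, at 80.7 CPM in RG-like cells, 18.1 CPM in early neuroblasts and 10.3 CPM in late neuroblasts, and each of these intervals stood apart from the next. OPCs and microglia held 1 Id1 UMI each.

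Id2 had its highest levels in late neuroblasts and astrocytes and followed the neuronal lineage the other way. It was 162 CPM in NSCs of either library, 130 and 127 CPM in RG-like cells (Control and TBI), 489 and 416 CPM in early neuroblasts, and 871 and 788 CPM in late neuroblasts. Within the early neuroblasts the 2 clusters lay at 328 CPM (interval 311 to 344) and 597 CPM (573 to 623), so the class itself was not uniform. The 3 late neuroblast clusters lay at 832, 843 and 541 CPM, the last of them a cluster of 77 shallow cells (median 3449 UMIs). A late neuroblast cluster of 346 cells had Camk2b, a marker listed for immature granule neurons, among its leading genes. No cluster was named immature granule neuron, so such cells may lie within this class. Astrocytes had 741 CPM in Control and 757 CPM in TBI. The order of late neuroblasts over astrocytes is not firm, because it turned (log2 difference of -0.11 in place of 0.14) when cells with over 10% mitochondrial UMIs were left out. Microglia also carried Id2, with 577 and 497 CPM. Oligodendrocytes (12.7 CPM over both libraries) and pericytes (22.1 CPM) were lowest.

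Id3 was a gene of the vessel wall and of astrocytes. Smooth muscle cells had 1927 CPM in Control and 1978 CPM in TBI, and endothelial cells 1925 and 1720 CPM. Pericytes followed with 709 and 510 CPM and astrocytes with 578 and 490 CPM. The pooled levels of pericytes (567 CPM), astrocytes (543 CPM) and fibroblasts (536 CPM, 63 UMIs) overlapped within their intervals. By library, however, fibroblasts lay below astrocytes in Control and above them in TBI. The Id genes together were 296 CPM in Control fibroblasts (12 UMIs, 66.7% of them Id3) and 831 CPM in TBI fibroblasts (64 UMIs, 85.9% Id3). In the neuronal lineage Id3 was close to absent, with 10.7 CPM in NSCs, 14.2 CPM in RG-like cells, 5.58 CPM in early and 4.19 CPM in late neuroblasts. Even that low signal was uneven: 30 of the 47 Id3 UMIs of early neuroblasts and 15 of the 27 of late neuroblasts were in called doublets. In Reln neurons, a small class of Reln-expressing neurons, Id3 was read 0 times in Control and 25 times in TBI, but 23 of those 25 UMIs came from 1 cell.

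Id4 was a gene of astroglia. Stem-like astroglia, which express Frzb, Hopx and Sparc, had 1039 CPM in Control and 1029 CPM in TBI, and astrocytes had 768 and 756 CPM. Reln neurons followed with 298 and 358 CPM. These 3 levels stood apart, and the next class down, RG-like cells, had 80.7 and 81.9 CPM. NSCs had 52.9 and 44.5 CPM and neuroblasts under 20 CPM, so the dividing and the neuronal cells carried far less Id4 than the astroglia. Endothelial cells, in which Id1 and Id3 were so high, held 29 Id4 UMIs (8.29 CPM).

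**Figure D1:**
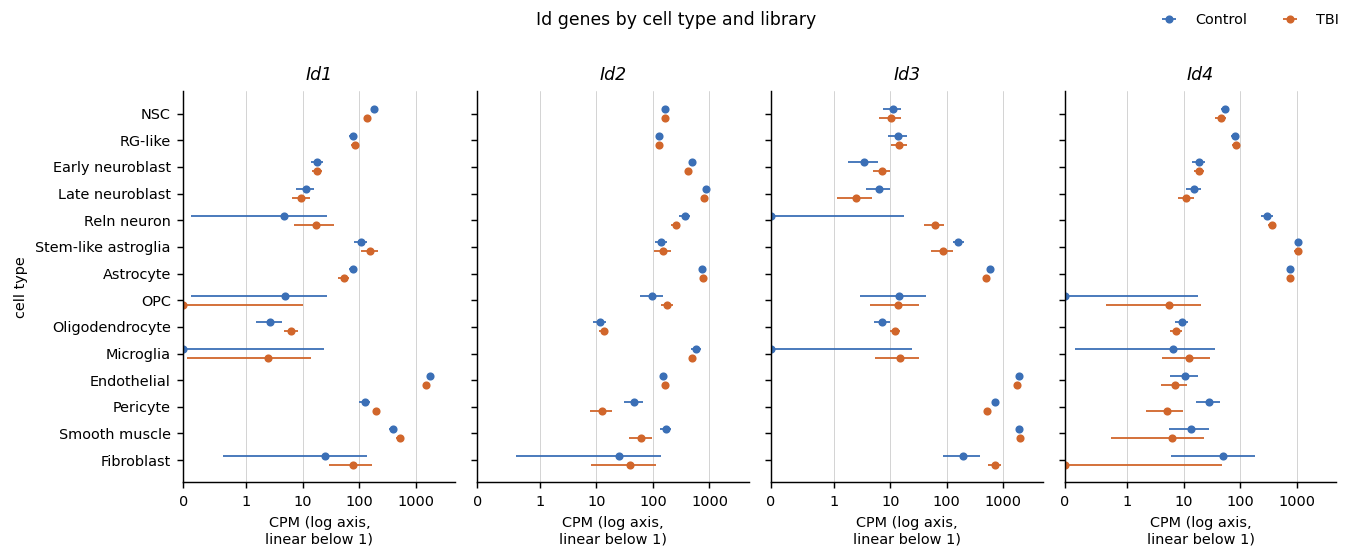
Levels of Id1, Id2, Id3 and Id4 in 14 cell classes, in CPM on a log axis that is linear below 1. Points are the Control library (blue) and the TBI library (orange) and bars are 95% Poisson intervals. Id1 and Id3 peak in endothelial and smooth muscle cells, Id2 in late neuroblasts and astrocytes and Id4 in stem-like astroglia and astrocytes, in each library.

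Cells with at least 1 UMI of a gene were counted after each cell was thinned to 2000 UMIs. An Id1 UMI was present in 82.5% of 795 endothelial cells (79.7% to 85.1%), 19.4% of 340 NSCs and 0.32% of 1562 oligodendrocytes, although oligodendrocytes were deeper before thinning (median 9056.5 UMIs against 4056 in endothelial cells). An Id2 UMI was present in 72.6% of late and 50.3% of early neuroblasts, 59.7% of astrocytes and 22.6% of NSCs, against 1.60% of oligodendrocytes. For Id3 the shares were 88.9% of endothelial cells, 84.8% of smooth muscle cells and 38.5% of astrocytes, against 0.126% of late neuroblasts. By this count endothelial and smooth muscle cells did not differ beyond counting error, whereas by CPM smooth muscle was higher. For Id4 they were 76.9% of stem-like astroglia, 62.8% of astrocytes and 41.6% of Reln neurons, against 0.881% of endothelial cells. The low shares can hold low expression as well as free RNA or stray cells, which were not told apart here.

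The 4 genes together made a different mixture in each class. UMIs are counted at the 3′ ends of transcripts and are not divided by gene length, so these are shares of captured molecules. In NSCs, Id1 (42.6% of 1918 Id UMIs) and Id2 (41.8%) overlapped within their intervals. In RG-like cells Id1 was 26.5%, Id2 42.2% and Id4 26.7%. In early and late neuroblasts Id2 made up 91.4% and 96.8%, and in microglia 95.7%. Stem-like astroglia were dominated by Id4 (72.2%), whereas astrocytes had Id4 (36.0%), Id2 (35.2%) and Id3 (25.6%) side by side with little Id1 (3.19%). Endothelial cells split between Id3 (49.9%) and Id1 (45.5%), and pericytes and smooth muscle were mostly Id3 (72.7% and 77.1%). The sum of the 4 genes was 3602 CPM in endothelial cells and 35.7 CPM in oligodendrocytes.

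**Figure D2:**
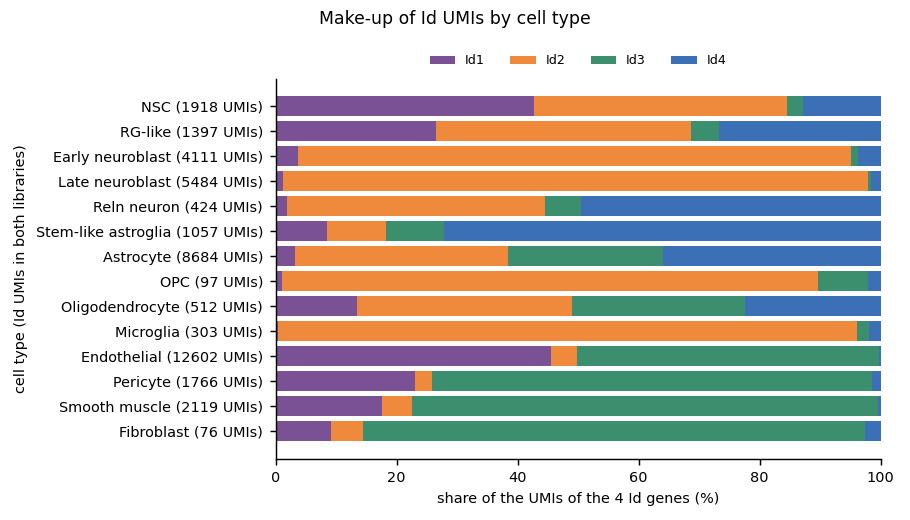
Share of each Id gene in all Id UMIs of a class (x axis, percent, both libraries together), with the number of Id UMIs beside each class name. NSCs are split between Id1 and Id2, neuroblasts and microglia are nearly all Id2, stem-like astroglia are mostly Id4 and vessel cells are mostly Id3 and Id1.

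Within the astrocytes the Id genes were graded. The 3 astrocyte clusters had Id2 at 1136, 695 and 308 CPM, Id3 at 934, 465 and 177 CPM, and Id4 at 1138, 695 and 391 CPM, in the same order for each gene. Bmpr1b went the other way, with 109 CPM in the cluster highest in Id genes and 210 and 202 CPM in the others. The cluster highest in Id genes was also the shallowest (median 1699 UMIs, against 4950 and 2356). The part of depth in this order was not tested.

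Of the receptors, Bmpr1a and Bmpr2 were found in all 14 classes and Bmpr1b mainly in astroglia. Bmpr1a, a type I receptor, was highest in fibroblasts (246 CPM in Control and 221 CPM in TBI, from 10 and 17 UMIs), smooth muscle (226 and 188 CPM), stem-like astroglia (161 and 145 CPM) and pericytes (160 and 152 CPM), and these neighbours overlapped in their intervals. Astrocytes had 118 CPM over both libraries, RG-like cells 94.9 CPM, NSCs 90.8 CPM, late neuroblasts 60.1 CPM and early neuroblasts 56.0 CPM. Endothelial cells were the exception with 6.86 CPM, and 10 of their 24 Bmpr1a UMIs were in called doublets.

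Bmpr1b, the other type I receptor, was nearly confined to astroglia in these libraries. Astrocytes had 197 CPM in Control and 156 CPM in TBI and held 85.3% of the 868 Bmpr1b UMIs. Stem-like astroglia had 73.7 and 51.2 CPM. Every other class was at 5.24 CPM or below, and OPCs, Reln neurons and fibroblasts held no Bmpr1b UMI, which allows up to 6.44, 5.93 and 31.4 CPM. At 2000 UMIs per cell, 26.6% of astrocytes and 7.69% of stem-like astroglia had a Bmpr1b UMI, against 0.294% of NSCs and 0 of 849 early neuroblasts (up to 0.434%). Of the type I receptor UMIs counted for Bmpr1a and Bmpr1b together, Bmpr1b made up 60.5% in astrocytes (57.7% to 63.2%), 29.9% in stem-like astroglia (23.0% to 37.5%), 5.23% in RG-like cells and 2.60% in NSCs.

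Bmpr2, the type II receptor, was present in every class and highest in endothelial cells, with 546 CPM in Control and 535 CPM in TBI. The 4 endothelial clusters were alike, at 493 to 563 CPM. All the other classes lay between 78.8 CPM in microglia and 170 CPM in Reln neurons, and neighbours in that order did not differ beyond their intervals. Endothelial cells thus had the most Bmpr2 and the least Bmpr1a of all classes. Acvrl1, a type I receptor of the vessel wall, and its co-receptor Eng were at 458 and 582 CPM there.

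**Figure D3:**
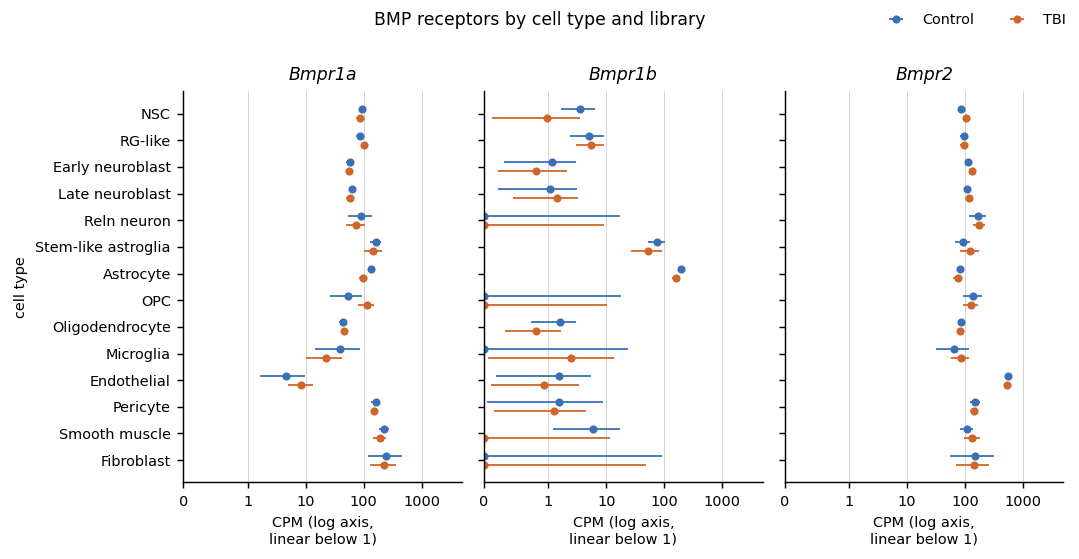
Levels of the receptors Bmpr1a, Bmpr1b and Bmpr2 in 14 cell classes, in CPM on a log axis that is linear below 1, for the Control (blue) and TBI (orange) libraries with 95% Poisson intervals. Bmpr1a and Bmpr2 are found in nearly all classes, with endothelial cells lowest for Bmpr1a and highest for Bmpr2, while Bmpr1b stands out in astrocytes and stem-like astroglia.

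The ligands came from few classes outside the neurogenic lineage. Bmp4 was found in OPCs (386 CPM in Control and 328 CPM in TBI), pericytes (125 and 154 CPM) and fibroblasts (98.5 and 195 CPM, from 4 and 15 UMIs). Pericytes held 56.9% and OPCs 34.5% of the 580 Bmp4 UMIs. NSCs, RG-like cells, neuroblasts, astrocytes and stem-like astroglia each held 2 Bmp4 UMIs or fewer, and the highest level among them was 0.436 CPM, in RG-like cells. The 2 pericyte clusters were alike in Bmp4, at 138 and 155 CPM. At 2000 UMIs, 23.0% of 74 OPCs and 22.6% of 703 pericytes had a Bmp4 UMI, against 0 of 932 astrocytes (up to 0.395%).

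Among the OPCs, Bmp4 was concentrated in cells with Gpr17, a receptor of committed oligodendrocyte precursors, and without Pdgfra. The 28 OPCs with a UMI of Gpr17 and none of Pdgfra, the receptor of the earlier precursor, held 182 of the 200 Bmp4 UMIs, which is 727 CPM (626 to 841). The 40 cells with both genes had 63.2 CPM (37.5 to 99.9). The 8 cells with Pdgfra alone and the 7 with neither gene had no Bmp4 UMI, which allows up to 228 and 169 CPM. Those bounds lie above the level of the cells with both, so the cells without Gpr17 cannot be told from them. Id2 ran opposite to Bmp4 in the same cells, with 7.99 CPM (2 UMIs) in the cells with Gpr17 alone and 284 CPM (81 UMIs) in the cells with both. The cells with Pdgfra alone were shallower (median 1966.5 UMIs against 5236 and 6891), and the part of depth in this split was not tested.

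Bmp6 and Bmp7 were fibroblast ligands here. Bmp6, known best as a regulator of iron balance, had 296 CPM in Control and 260 CPM in TBI fibroblasts (12 and 20 UMIs). The next class, smooth muscle, had 7.15 CPM from 6 UMIs, all of them in Control. Bmp7 had 394 and 533 CPM in fibroblasts (16 and 41 UMIs), then 24.1 and 46.5 CPM in OPCs and 16.8 and 18.2 CPM in astrocytes. Because astrocytes were many, they still held 41.0% of the 173 Bmp7 UMIs, against 32.9% for the 31 fibroblasts. The fibroblast levels rest on 12 Control and 19 TBI cells.

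**Figure D4:**
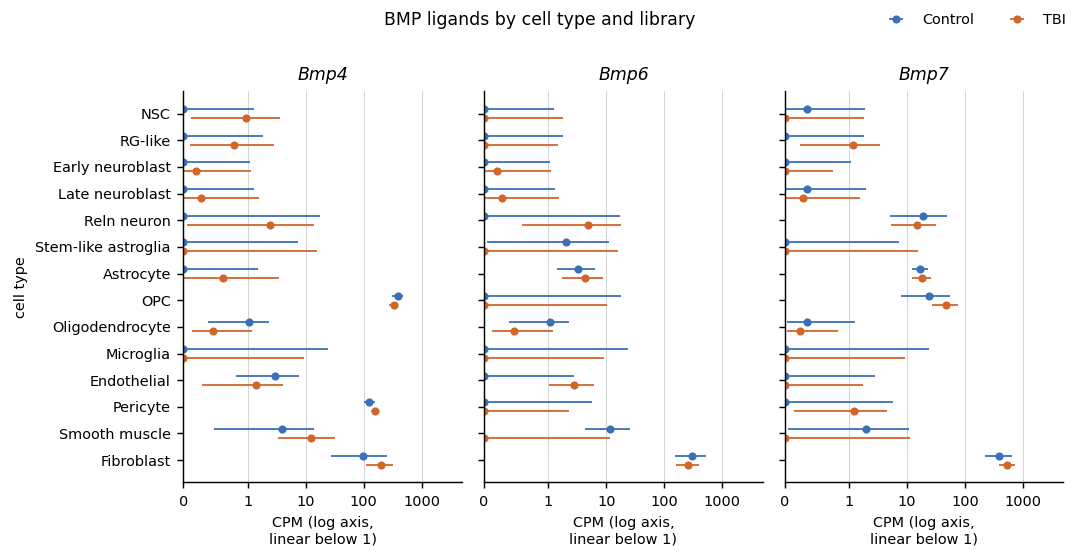
Levels of the ligands Bmp4, Bmp6 and Bmp7 in 14 cell classes, in CPM on a log axis that is linear below 1, for the Control (blue) and TBI (orange) libraries with 95% Poisson intervals. Bmp4 stands out in OPCs, pericytes and fibroblasts, and Bmp6 and Bmp7 in fibroblasts, while the neurogenic classes lie near 0.

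The other pathway genes, from fixed lists, add to where signals are sent and received. Of 10 other ligands, Bmp2 was highest in fibroblasts (238 CPM) and smooth muscle (51.3 CPM), Bmp5 in fibroblasts (119 CPM) and pericytes (72.4 CPM), and Gdf5 in Reln neurons (125 CPM, against 8.50 CPM or less elsewhere). Bmp3 reached 1.75 CPM at most, and 4 of the 10 had no UMI in a named class. Among the co-receptors, Neo1 was highest in late neuroblasts (248 CPM). Rgma, its ligand and a BMP co-receptor, was highest over both libraries in stem-like astroglia (181 CPM), where it overlapped fibroblasts (162 CPM) and astrocytes (161 CPM) in its interval. By library the highest Rgma class was fibroblasts in Control and astrocytes in TBI. Of the signal-carrying Smads, Smad1 was highest in Reln neurons (326 CPM) and lay between 25.8 and 120 CPM in the other classes. Smad5 ran from 28.6 to 87.9 CPM and Smad4 from 39.6 to 128 CPM, whereas Smad9 reached 11.7 CPM at most, in astrocytes.

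Some feedback inhibitors and antagonists differed widely between classes and others did not. Smad7, an inhibitory Smad, was highest in oligodendrocytes (548 CPM) and microglia (381 CPM), followed by endothelial cells (220 CPM). By library its highest class was microglia in Control and oligodendrocytes in TBI. Bambi, a decoy receptor, was highest in endothelial cells (69.2 CPM). The ubiquitin ligases Smurf2 (25.8 to 63.2 CPM) and Smurf1 (9.82 to 45.3 CPM) were found in all 14 classes. Of 11 secreted antagonists, Nbl1 was highest in pericytes (850 CPM), Fstl1 in pericytes (180 CPM) and fibroblasts (179 CPM) and Bmper in stem-like astroglia (40.7 CPM). Twsg1 was highest in Reln neurons (256 CPM), overlapping in its interval fibroblasts (136 CPM), which were its highest class in Control. Noggin (Nog), chosen after its values were seen, reached 6.35 CPM at most, in astrocytes. Other BMP targets were low, led by Hey1 in endothelial cells (71.5 CPM) and Msx1 in fibroblasts (128 CPM). Of the E proteins that Id proteins bind, Tcf4 was highest in late (4897 CPM) and early neuroblasts (4579 CPM). Tcf3 was highest in NSCs (124 CPM) and RG-like cells (123 CPM). Tcf12 was highest in fibroblasts (383 CPM), which overlapped pericytes (269 CPM) in their interval.

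Across 28 profiles (14 classes in each of 2 libraries) the pattern of each Id gene was set beside those of 13151 other genes by Pearson's r of log2(CPM + 1). Id1 was most like Vim (0.89), Iqgap1 (0.88) and Lef1 (0.85), and Id3 most like Ccdc141 (0.93), Lamb2 (0.92) and Dlc1 (0.91). Id2 was most like Ccdc85c (0.82), Plxna4 (0.79) and Prr7 (0.75), and Id4 most like Dkk3 (0.88), C030037D09Rik (0.85) and Mroh7 (0.85). Among the members, Id1 and Id3 had an r of 0.77 and Id4 and Bmpr1b 0.72, while Id1 and Id2 had -0.17. These are descriptions, since profiles of a library share its preparation and its depth, and Vim and Plxna4 were among the markers that named the classes.

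The comparison of TBI with Control asks whether these genes differed between the 2 libraries within a class. With 1 library per condition, injury cannot be told apart from differences in preparation and depth between the libraries. A ratio was formed where a gene had at least 100 UMIs over both libraries and 10 in each, which 52 pairs of member and class met. Of these, 4 differed by 1.5-fold or more, 2 higher and 2 lower in TBI, and their median log2 ratio was -0.04. Over all genes and classes 3.80% of 60339 such pairs differed as much, against 4 of 52 for the members, so few pairs of either kind passed that size. Under the alternatives run the members' count was 2 to 5, and the share of all pairs, where counted, was 3.36% to 4.59%. Per class, the median log2 ratio of all genes was within 0.1 of 0 except in OPCs (0.15). Bmp6 and Bmp7 had too few UMIs for a ratio in any class.

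**Figure D5:**
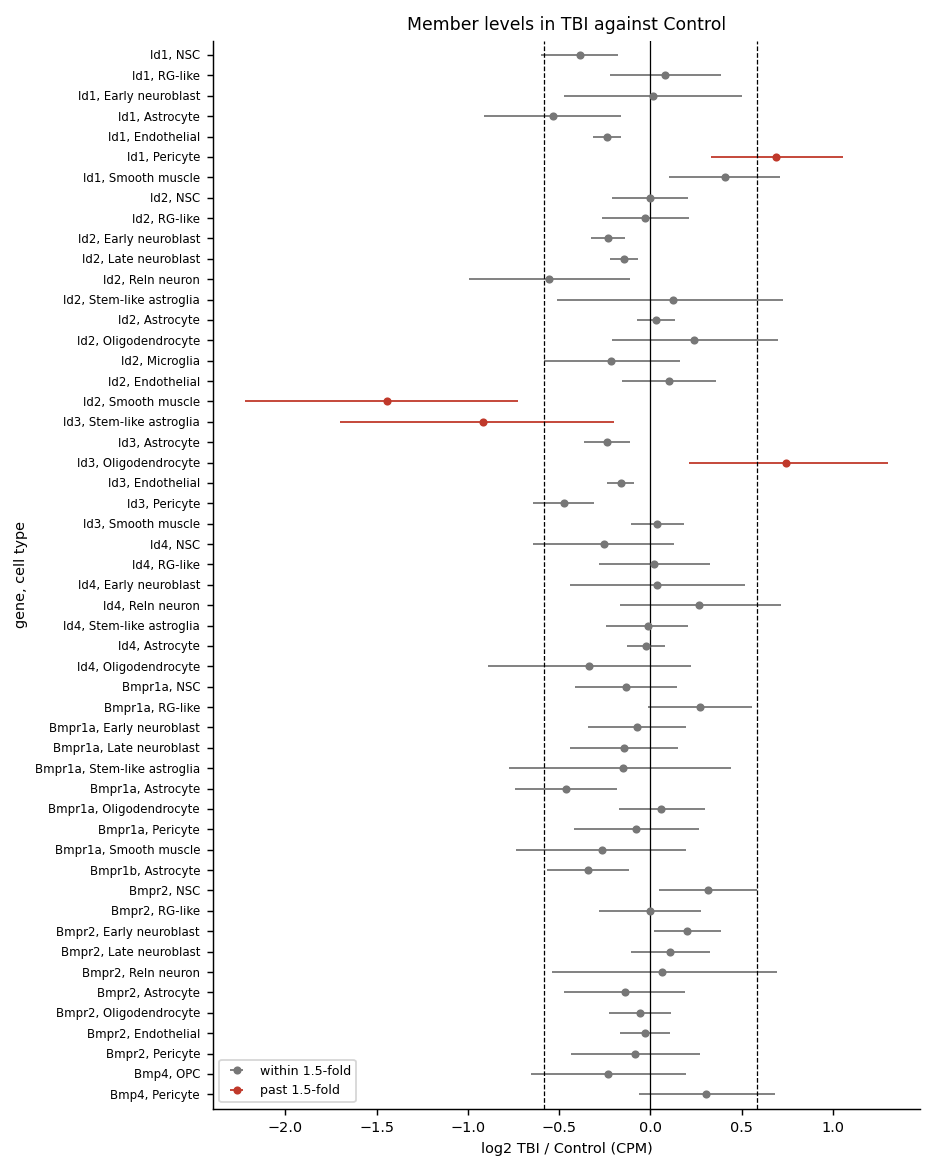
Log2 ratio of the TBI level over the Control level (x axis) for the 52 pairs of member and class with enough UMIs, with 95% exact intervals that cover counting error only. Dashed lines mark 1.5-fold, red points are the 4 pairs past it, and the other 48 lie between the lines.

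In the neurogenic lineage no member passed 1.5-fold, which 2.96% of the genes with a ratio did in NSCs, 2.41% in RG-like cells, 1.89% in early neuroblasts and 2.34% in late neuroblasts. Id1 in NSCs was 183 CPM in Control and 140 CPM in TBI, a log2 ratio of -0.39 (-0.60 to -0.18), and it stayed below 0 in 12 of 12 alternatives (-0.69 to -0.36). Bmpr2 in NSCs was 85.2 and 106 CPM (0.31, 0.05 to 0.58). Id2 was somewhat lower in TBI in early neuroblasts (-0.23, -0.33 to -0.14) and late neuroblasts (-0.14, -0.22 to -0.07). Intervals of the RG-like cells included 0 for all 5 members with a ratio. Markers of other classes differed there too. The oligodendrocyte markers summed to 155 CPM in Control and 841 CPM in TBI RG-like cells (8 of 8 higher in TBI) and the pericyte markers to 11.8 and 143 CPM (8 of 8). Those of endothelial cells, the class highest in Id1, summed to 6.40 and 45.9 CPM (5 of 6), and the part of these markers was not tested. In NSCs the 8 pericyte markers summed to 8.59 CPM in Control and 95.8 CPM in TBI, all 8 higher in TBI, and their part in the NSC values was not tested. In early neuroblasts the pericyte markers summed to 9.86 and 109 CPM (7 of 8 higher in TBI) and the endothelial markers to 6.96 and 59.8 CPM (6 of 6), and in late neuroblasts the oligodendrocyte markers to 626 and 404 CPM (0 of 8), and their part was not tested either.

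The lower Id1 of NSCs was uneven between their 2 clusters. In the cluster of 89 Control and 102 TBI cells Id1 was 198 and 122 CPM, a log2 ratio of -0.70 (-1.01 to -0.39), where 4.34% of the 4169 genes with a ratio passed 1.5-fold. In the other, of 81 and 71 cells, it was 169 and 159 CPM (-0.09, -0.39 to 0.20), where 2.83% passed. A single draw of thinning gave -1.12 and 0.76 for the 2 clusters, and the expectation over all draws was -0.77 and 0.01. In the former the pericyte markers summed to 8.70 CPM in Control and 18.8 CPM in TBI, and in the latter to 8.49 and 179 CPM. These clusters were singled out after their values were seen, and the difference between them was not tested.

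In astrocytes Id1, Id3 and both type I receptors were lower in TBI, within 1.5-fold. Id1 was 77.2 CPM in Control and 53.4 CPM in TBI (log2 ratio -0.53, -0.91 to -0.16), Bmpr1a 133 and 96.5 CPM (-0.46, -0.74 to -0.18), Bmpr1b 197 and 156 CPM (-0.34, -0.56 to -0.12) and Id3 578 and 490 CPM (-0.24, -0.37 to -0.11). Id2 (0.03, -0.08 to 0.13) and Id4 (-0.02, -0.13 to 0.08) hardly differed. None passed 1.5-fold, which 3.08% of all astrocyte genes with a ratio did. Over all draws of thinning to 2000 UMIs the expected ratio was -0.07 for Id3 and -0.60 for Id1.

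The astrocyte clusters were not alike in this. In the cluster of 249 Control and 248 TBI cells (median 4950 UMIs), Id3 was 572 CPM in Control and 312 CPM in TBI, a log2 ratio of -0.88 (-1.08 to -0.68). Id1 in the same cells was 71.3 and 31.6 CPM (-1.18, -1.83 to -0.56), while Id2 (-0.24) and Id4 (-0.21) differed less, and 2.79% of the genes with a ratio there passed 1.5-fold. On the same cells Id3 ranged from -0.89 to -0.75 and Id1 from -1.26 to -1.11 over the other ways of scaling, and an Id3 UMI was present at 2000 UMIs in 41.1% of Control and 26.4% of TBI cells. The endothelial markers, of a class rich in Id1 and Id3, summed to 12.3 CPM in Control and 12.0 CPM in TBI there. Those of smooth muscle, the class highest in Id3, summed to 14.6 and 7.63 CPM, 1 of 5 higher in TBI. The pericyte markers summed to 160 and 180 CPM (5 of 8 higher), the oligodendrocyte markers to 241 and 350 CPM (5 of 8) and the microglial markers to 65.2 and 51.2 CPM (0 of 8). The part of these markers in the Id1 and Id3 values was not tested. In the cluster of 244 and 315 cells Id3 was 918 and 954 CPM (0.05, -0.12 to 0.23) and Id1 115 and 105 CPM (-0.13, -0.67 to 0.40), where 4.72% passed, but thinning, which leaves 137 and 71 of these cells, moved the expected Id3 ratio to 0.56. In the cluster of 231 and 140 cells Id3 was 179 and 174 CPM (-0.04, -0.62 to 0.52), where 8.29% passed. Its expected Id1 over all draws of thinning was 54.2 CPM in Control and 18.6 CPM in TBI (-1.55), from 14.3 and 1.86 expected UMIs. Without the first cluster, the ratios of all astrocytes were 0.29 for Id3 and -0.05 for Id1. Both values also carry the mix of the other clusters, which differed in level and in cell numbers between the libraries. The part of each cluster in the ratios of the class was not tested. The first cluster too was singled out after its values were seen.

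In stem-like astroglia, a small class, Id3 was lower in TBI. It was 161 CPM (81 UMIs) in Control and 85.4 CPM (20 UMIs) in TBI, a log2 ratio of -0.92 (-1.70 to -0.20). With 95 and 51 cells, 11.9% of the genes of the class with a ratio passed 1.5-fold. The value was past 1.5-fold in 8 of 12 alternatives. It was -0.28 at the least, with called doublets removed and the remaining cells clustered and named anew. The class as reported held 1 called doublet among 146 cells, so the cells of the class changed as well. The endothelial markers summed to 15.9 CPM in Control and 17.1 CPM in TBI there, and the smooth muscle markers to 53.8 and 64.0 CPM. The astrocyte markers, of a class with more Id3, summed to 17168 and 14389 CPM, 1 of 9 higher in TBI, and the microglial markers to 43.8 and 167 CPM, and their part was not tested. Id4 in the same cells was 1039 and 1029 CPM (-0.01, -0.24 to 0.21).

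In the vessel wall, endothelial cells had slightly less Id1 and Id3 in TBI. Id1 was 1807 and 1533 CPM (-0.24, -0.31 to -0.16) and Id3 1925 and 1720 CPM (-0.16, -0.24 to -0.09), while Id2 was 151 and 162 CPM (0.10, -0.15 to 0.36) and Bmpr2 546 and 535 CPM (-0.03, -0.16 to 0.11). The pericyte markers summed to 532 CPM in Control and 914 CPM in TBI endothelial cells, 7 of 8 higher in TBI, and their part was not tested. For comparison, 2.57% of endothelial genes with a ratio passed 1.5-fold. By cluster the Id1 ratio ran from -0.43 to 0.16 over the 4 endothelial clusters.

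In pericytes Id1 was 125 CPM in Control and 201 CPM in TBI, a log2 ratio of 0.69 (0.33 to 1.06), past 1.5-fold in 10 of 12 alternatives, and 4.88% of the genes with a ratio passed 1.5-fold. Most Control pericytes (144 of 187) were in 1 cluster, whereas the TBI pericytes were split between it (283) and another cluster (262, with 43 Control cells) that had more Id1 (311 against 70.8 CPM). Within the former the ratio was -0.24 (-0.88 to 0.40), where 3.11% of genes passed 1.5-fold, and within the latter 0.28 (-0.18 to 0.78), where 15.5% did. The endothelial markers summed to 123 CPM in Control and 228 CPM in TBI pericytes, 5 of 6 higher in TBI, and their part was not tested. Id3 in pericytes was 709 and 510 CPM (-0.48, -0.64 to -0.31) and depended on the same cluster, with 163 and 168 CPM (0.04, -0.37 to 0.47) in the cluster that held most cells of each library. In the other it was 2328 CPM in 43 Control cells and 810 CPM in 262 TBI cells (-1.52, -1.70 to -1.34). There the smooth muscle markers, of the class highest in Id3, summed to 2975 CPM in Control and 1867 CPM in TBI, 0 of 5 higher in TBI, and their part was not tested.

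In smooth muscle Id2 was 167 CPM (86 UMIs) in Control and 61.6 CPM (20 UMIs) in TBI, a log2 ratio of -1.44 (-2.22 to -0.73), past 1.5-fold in 12 of 12 alternatives. Of the genes with a ratio in this class of 64 and 62 cells, 16.0% passed 1.5-fold. Of the 86 Control UMIs 29 were in 1 cell. The astrocyte markers summed to 626 CPM in Control and 37.0 CPM in TBI smooth muscle, 0 of 9 higher in TBI, and the oligodendrocyte markers to 1204 and 203 CPM, 0 of 8 higher. The pericyte markers, of a class poor in Id2, summed to 4517 and 11831 CPM, 7 of 8 higher, and the smooth muscle markers to 36504 and 25338 CPM, 0 of 5 higher. Astrocytes were among the classes richest in Id2, and the part of these other markers in the value was not tested. Id1 was 393 and 521 CPM (0.41, 0.10 to 0.71), and in the larger of the 2 smooth muscle clusters alone 398 and 646 CPM (0.70, 0.38 to 1.02), where 12.7% of genes passed 1.5-fold. In that cluster the endothelial markers, of the class highest in Id1, summed to 6.66 CPM in Control and 609 CPM in TBI, 6 of 6 higher in TBI, and their part was not tested. A single called doublet held 35 of the 169 TBI Id1 UMIs of smooth muscle, and without called doublets the ratio of the larger cluster was 0.43 (0.08 to 0.77). In the smaller cluster, of 13 and 22 cells, Id1 was 359 and 127 CPM (-1.49, -2.73 to -0.37), where 39.1% passed and the endothelial markers summed to 1855 and 76.4 CPM, 0 of 6 higher in TBI.

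In oligodendrocytes Id3 was 7.23 CPM (41 UMIs) in Control and 12.1 CPM (105 UMIs) in TBI, a log2 ratio of 0.75 (0.21 to 1.30), where 1.80% of genes passed 1.5-fold. Called doublets held 11 of the 41 Control and 64 of the 105 TBI UMIs. Without called doublets, and with the remaining cells clustered anew, the ratio was -0.17. Without the cluster of 28 Control and 205 TBI cells it was 0.29. The endothelial markers summed to 23.6 and 81.5 CPM, 6 of 6 higher in TBI.

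The Bmp4 ratios had intervals that included 0. In OPCs it was 386 and 328 CPM (-0.23, -0.65 to 0.20), where 28.5% of genes passed 1.5-fold and 29 of the 80 Control UMIs came from 1 cell. With every cell thinned to 2000 UMIs the OPC ratio turned to 1.24 in 1 draw and 0.61 in expectation. The oligodendrocyte markers summed to 24668 CPM in Control and 5601 CPM in TBI OPCs, 1 of 8 higher in TBI, so the class differed in make-up, and the part of this in Bmp4 was not tested. In pericytes it was 125 and 154 CPM (0.30, -0.06 to 0.68).

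In the remaining small classes, Id2 in Reln neurons was 368 CPM in Control and 251 CPM in TBI (-0.55, -0.99 to -0.11), where 3.47% of genes passed 1.5-fold and 29 of the 78 Control UMIs were in 1 cell. In Reln neurons the markers of late neuroblasts, the class highest in Id2, summed to 1049 CPM in Control and 660 CPM in TBI, 0 of 5 higher in TBI. The astrocyte markers summed to 316 and 190 CPM, 2 of 9 higher, and the part of these markers was not tested. Id4 in Reln neurons was 298 and 358 CPM (0.27, -0.17 to 0.72). Id2 in microglia was 577 and 497 CPM (-0.22, -0.58 to 0.16), where 12.7% passed. No member had enough UMIs for a ratio in fibroblasts, where 29.9% of 107 genes passed.

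Over all genes and classes 3.80% of pairs passed 1.5-fold, and the fixed lists around the members showed few such ratios either. These were 0 of 2 for the other ligands, 0 of 33 for the other receptors, 0 of 25 for the Smads, 2 of 20 for the feedback inhibitors, 1 of 15 for the antagonists, 1 of 4 for the other targets and 0 of 29 for the E proteins. The 4 pairs were Smad7 in microglia (551 CPM in Control and 317 CPM in TBI) and in pericytes (41.6 and 77.9 CPM), Nbl1 in smooth muscle (270 and 462 CPM) and Msx1 in endothelial cells (25.4 and 38.4 CPM). In these classes 12.7%, 4.88%, 16.0% and 2.57% of the genes with a ratio passed 1.5-fold, in that order. Nbl1 was highest in pericytes. Their markers summed to 4517 CPM in Control and 11831 CPM in TBI smooth muscle, 7 of 8 higher in TBI, and their part was not tested.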

How the data were processed

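The study sorted GFP+ cells of the dentate gyrus and sequenced 1 droplet library of Control and 1 of TBI mice. The deposited values are counts: the authors aligned reads to the mouse genome GRCm38/mm10 with Cell Ranger 3.0.2 and counted UMIs per gene and cell, without normalization. A library was given its condition by the cells the study lists: 356 of 356 listed Control and 320 of 320 listed TBI barcodes were in the matching matrix. Animals cannot be told apart within a library.

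Cells with at least 200 genes and within 3 median absolute deviations were kept. Libraries were integrated by canonical correlation and clustered in Seurat 5.3.0 (R 4.3.3, 20 dimensions, resolution 3, and 0.8 within the lineage cells), without the 10 members and 45 other pathway genes. Clusters were named from fixed markers. Scrublet (in scanpy 1.11.5) marked likely doublets, which were kept. UMIs were summed per class and library (numpy 2.4.6, scipy 1.17.1, Python 3.11.15; plots with matplotlib 3.10.9) and given per 1000000 UMIs without Malat1. Intervals are exact: Poisson for levels, Clopper-Pearson for shares and conditional binomial for ratios. A count of 0 is given with its upper Poisson bound. UMIs mark molecules, but cells of a library are not replicates, so no test was run.

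All 10 members were named, up to 4 genes of each pathway list with the most UMIs, and the 3 genes most like each Id gene. The members and lists were chosen with earlier results of these data known. Scripts were tested on simulated data. Alternatives covered cell filters, doublets, integration, resolution, scaling and thinning. Those of cell filters, doublets, integration and resolution clustered and named the cells anew, so the cells of a class could change.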

Additional observations from a re-analysis of the deposited data

How the results depend on the processing

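No paired analysis was possible because the cells of a library cannot be assigned to the numbered animals of the labels, and with 1 library per condition leaving out a replicate was not an option. Spread between animals is therefore unmeasured, and small classes such as fibroblasts (31 cells), microglia (82) and OPCs (83) hold few UMIs.

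Of 119 comparisons of the highest with the next class, 107 stayed within counting error of the reported value. Without cells of over 10% mitochondrial UMIs the log2 difference of Id2 in late neuroblasts over astrocytes was -0.11 (reported 0.14), of Id3 in smooth muscle over endothelial cells 0.26 (0.11) and of Id4 in stem-like astroglia over astrocytes 0.58 (0.44). The Id2 value was 0.058 without integration, 0.27 with Malat1 and 0.22 without mitochondrial and ribosomal protein genes. Id1 in endothelial over smooth muscle cells was 2.06 without called doublets (1.89). With cells thinned to 2000 UMIs it was 2.12, Id4 was 0.57, Bmpr1b in astrocytes over stem-like astroglia 1.98 (1.44) and Bmp7 in fibroblasts over OPCs 5.32 (3.66). Bmp4 in OPCs over fibroblasts was 0.22 as a mean over cells (1.11). Bmp6 had a value in 11 of 12 alternatives.

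Shares of cells move with depth by construction. Thinned to 1000 UMIs and unthinned, they were 63.1% and 88.7% for Id1 in endothelial cells, 52.1% and 95.1% for Id2 in late neuroblasts, 69.8% and 95.2% for Id3 in smooth muscle, 55.6% and 84.9% for Id4 in stem-like astroglia, 13.5% and 33.9% for Bmpr1b in astrocytes, and 39.7% and 82.5% for Bmpr2 in endothelial cells. Bmpr1a in fibroblasts was 41.9% unthinned, and at 1000 UMIs Bmp4 in OPCs was 12.2% and Bmp7 in fibroblasts 19.4%.

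Of the TBI to Control ratios past 1.5-fold, 49 of 51 alternative values kept their direction. The log2 ratio of Id3 in oligodendrocytes turned to -0.17 without called doublets, where 2 of 46 member pairs and 3.49% of all pairs passed 1.5-fold. That of Id1 in pericytes turned to -0.24 without the cluster of 43 Control and 262 TBI cells. The latter, 3 other cluster-wise alternatives, the expectation over draws of thinning and the smooth muscle cluster without doublets were chosen after seeing the data. Of ratios within 1.5-fold, 546 of 579 values stayed within counting error. The causes were not tested.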
